A study of Homo sapiens with 12 samples.

Results

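Regulators of G protein signalling (RGS) are a family of proteins that speed the hydrolysis of GTP on the alpha subunits of heterotrimeric G proteins, and so shorten the signal that a G protein coupled receptor starts. They share an RGS domain that binds the active alpha subunit. In B lymphocytes they are known for damping the response to chemokines, and RGS1 and RGS13 are characteristic of the germinal centre. Described here are the 9 RGS genes RGS1, RGS2, RGS3, RGS10, RGS12, RGS13, RGS14, RGS16 and RGS19, taken by name from the 61466 genes of the table, together with the microRNA gene MIR6813, which lies inside RGS19. The 9 genes were selected on their FPKM and on the differences between these same libraries, so those values describe them and no p-value is given for them. RGS1, RGS2, RGS3, RGS13 and RGS16 belong to the R4 group of the family, RGS10, RGS12 and RGS14 to the R12 group, and RGS19 to the RZ group.

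The study measured gene expression by RNA sequencing in Farage and SU-DHL-8, a pair of established human lines of diffuse large B cell lymphoma whose labels give lymph node as tissue and no genetic change. Each line was given morusinol, a prenylated flavonoid of mulberry root bark, or served as control, and was sampled at 12 h. The 4 groups, with 3 libraries each, were Farage with morusinol, Farage control, SU-DHL-8 with morusinol and SU-DHL-8 control. The sources used here give neither the dose nor whether the libraries of a group came from separate cultures, so differences can be set only against the spread between these libraries. Values are FPKM (fragments scaled by the length of the gene and the depth of the library). Comparisons between libraries depend on this scaling, and some calls changed with another scaling, as given below.

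The libraries held an estimated 6.05 to 18.96 M (mega, a unit of depth) fragments, the fewest in replicate 2 of SU-DHL-8 with morusinol. Across the 17574 genes tested, Pearson r between libraries of 1 group was 0.964 to 0.980 on the log2 scale. The 6 B cell markers were present in every library, and their summed level was 613 to 660 FPKM in Farage with morusinol, 966 to 1020 in Farage controls, 230 to 238 in SU-DHL-8 with morusinol and 354 to 368 in SU-DHL-8 controls. Single markers did not all follow the sum. In SU-DHL-8, CD79B (91.6 against 71.7 FPKM) and PAX5 (45.1 against 39.8) had higher means with morusinol. The other markers had lower means there, CD79A with 43 against 175 FPKM. All 6 T and NK cell markers and all 4 platelet markers stayed under 1 FPKM, and of the 11 myeloid, fibroblast, endothelial and epithelial markers only LYZ (up to 1.43 FPKM) and PDGFRB (up to 1.32 FPKM) passed 1. Of the 9 RGS genes, RGS12 was near 0, under 1 FPKM in all 12 libraries, and was the only one not tested. In SU-DHL-8, RGS3 was also under 1 FPKM in all libraries, RGS14 in all 3 with morusinol and in 1 control, and RGS16 in all 3 controls. A gene was tested when it reached 1 FPKM in at least 3 libraries, and it is said to be called, or to have risen or fallen, when its adjusted p over all 17574 genes was under 0.05 in limma.

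The promoters of 4 genes are printed here, RGS1 and RGS16 because they rose with morusinol in both lines, RGS2 because it was the highest of the 9 genes in both Farage groups, and RGS19 because it was the highest in SU-DHL-8 controls. Each stretch holds the 150 bases from 200 to 51 bases before a start of the gene in RefSeq (GRCh38.p14), written on the gene's own strand. RefSeq lists 2 starts for RGS10 and RGS19 and 5 for RGS3 and RGS12. Only the start nearest the annotated start of the gene was used, and the others were not searched. Capitals mark matches, on either strand, to the letters searched for, which were TGACGTCA (cAMP response element), TGATGNAA (ATF4 and C/EBP element), TGANTCA (AP-1 site), CCAAT and GGGCGG (GC box), besides a kappaB-like site made of GGGA and CC with any 4 bases between them.
RGS1 (chr1:192575573-192575722, plus strand): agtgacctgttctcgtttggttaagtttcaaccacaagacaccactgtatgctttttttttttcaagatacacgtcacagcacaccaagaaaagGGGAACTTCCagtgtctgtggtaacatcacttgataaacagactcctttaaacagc
RGS16 (chr1:182604440-182604589, minus strand): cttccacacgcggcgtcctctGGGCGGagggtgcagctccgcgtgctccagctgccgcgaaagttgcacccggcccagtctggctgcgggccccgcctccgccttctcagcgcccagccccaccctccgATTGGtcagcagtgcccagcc
RGS2 (chr1:192808839-192808988, plus strand): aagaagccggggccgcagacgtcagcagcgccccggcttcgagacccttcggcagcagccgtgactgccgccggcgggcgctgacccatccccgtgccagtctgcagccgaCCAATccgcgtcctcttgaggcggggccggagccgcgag
RGS19 (chr20:64080015-64080164, minus strand): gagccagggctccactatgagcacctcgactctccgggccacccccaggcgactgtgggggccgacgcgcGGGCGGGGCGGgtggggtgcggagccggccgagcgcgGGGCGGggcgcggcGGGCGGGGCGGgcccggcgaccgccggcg
The RGS1 window held 1 kappaB-like match, GGGAACTTCC, which 14.1% of the windows of 35116 promoters also held in some form. The windows of RGS16, RGS2 and RGS13, the last not printed, held 1 CCAAT box each, and 23.1% of promoters held a match. The RGS19 window held 5 GC boxes, 4 of them in overlapping pairs, and RGS16 held 1. The windows of RGS10 and RGS12, not printed, held 4 each. GC boxes occurred in 31.4% of promoters. The RGS19 window was 84.0% G and C, above 98.6% of all promoter windows, whose median was 58.0%, whereas RGS1 stood at 40.7%. None of the 9 windows held the cAMP response element, the ATF4 and C/EBP element or the AP-1 site, which occurred in 0.874%, 1.93% and 4.06% of promoters. A match to letters is a description of the sequence only.

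RGS1 and RGS16 rose with morusinol in both lines, and RGS2 rose in Farage. RGS1, which acts on the alpha subunits of the Gi and Gq classes and restrains chemokine receptors in B cells, had 55.9, 55.1 and 60.3 FPKM in Farage with morusinol, against 12.96, 14.7 and 16.4 FPKM in Farage controls. In SU-DHL-8 it had 33.9, 33.5 and 34.2 FPKM with morusinol and 5.86, 5.95 and 5.94 FPKM in controls. The treated and control libraries were far apart in each line, and the ratio of means was 3.88 in Farage (log2 fold change of FPKM + 1 of 1.89 ± 0.0676, SE) and 5.72 in SU-DHL-8 (2.33 ± 0.0676). RGS16, another regulator of Gi and Gq subunits, had 10.4, 12.5 and 11.2 FPKM in Farage with morusinol and 7.94, 7.26 and 8.70 FPKM in Farage controls, a ratio of 1.42. SU-DHL-8 libraries had 13.8, 11.4 and 11.8 FPKM of RGS16 with morusinol, against 0.954, 0.877 and 0.744 FPKM in controls, a ratio of 14.3. The treated libraries of the 2 lines thus stood at like levels of RGS16, 11.3 ± 1.08 FPKM in Farage and 12.3 ± 1.31 FPKM in SU-DHL-8 (SD, n = 3 each), while the controls differed by a ratio of 9.28, Farage over SU-DHL-8. The log2 fold change of RGS16 was 0.46 ± 0.0911 in Farage and 2.84 ± 0.0911 in SU-DHL-8. As these are bulk libraries, fewer cells with a transcript and less of it per cell cannot be told apart.

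RGS2, which prefers the Gq alpha subunit, was the highest of the 9 genes in both Farage groups. It had 174, 174 and 181 FPKM in Farage with morusinol and 97.4, 99.3 and 100.3 FPKM in Farage controls, with no overlap and a log2 fold change of 0.83 ± 0.0569. SU-DHL-8 libraries had 20.0, 17.6 and 18.4 FPKM of RGS2 with morusinol and 16.5, 18.7 and 16.3 FPKM in controls, and these groups overlapped (0.11 ± 0.0569, not called). That value passed the threshold when the levels were scaled to protein-coding genes (0.18) or when SU-DHL-8 control replicate 2 was left out (0.17). RGS1, RGS13 and RGS2 lie side by side on the plus strand of chromosome 1 (GRCh38), RGS1 at 192575727 to 192580031, RGS13 at 192636138 to 192660306 and RGS2 at 192809039 to 192812283, with gaps of 56.1 and 148.7 kb. A long non-coding gene, AL390957.1, spans all 3 on the opposite strand and had at most 0.223 FPKM in any Farage library and 0.466 FPKM in any SU-DHL-8 library.

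Of the other R4 genes, RGS13 fell with morusinol in both lines and RGS3 fell in Farage. RGS13, a short regulator known from germinal centre B cells, had 4.03, 3.35 and 4.07 FPKM in Farage with morusinol and 4.15, 5.60 and 5.27 FPKM in Farage controls. In SU-DHL-8 it had 9.37, 9.75 and 10.5 FPKM with morusinol and 15.7, 17.2 and 14.3 FPKM in controls. Neither pair of groups overlapped, but in Farage the nearest treated and control libraries, at 4.07 and 4.15 FPKM, almost met. RGS13 fell by 0.62 ± 0.102 on the log2 scale in SU-DHL-8 and by 0.31 ± 0.102 in Farage, and the Farage call was lost without Farage control replicate 2 (-0.24), control replicate 3 (-0.28) or morusinol replicate 2 (-0.24). RGS3, a regulator of Gi and Gq subunits with several long isoforms, had 3.11, 3.61 and 2.77 FPKM in Farage with morusinol and 5.88, 6.26 and 5.61 FPKM in Farage controls, so that it fell by 0.74 ± 0.091. In SU-DHL-8 it was low in all libraries, at 0.157, 0.227 and 0.186 FPKM with morusinol and 0.319, 0.225 and 0.314 FPKM in controls (-0.11 ± 0.091, not called). The gene AL162727.2 overlaps RGS3 on the opposite strand of chromosome 9 and had 1.2, 1.08 and 1.65 FPKM in Farage with morusinol, against 4.54, 3.34 and 4.27 FPKM in Farage controls. The sources used here do not give the strand of counting, and without it fragments of RGS3 and of this gene cannot be told apart where they overlap.

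**Figure D1:**
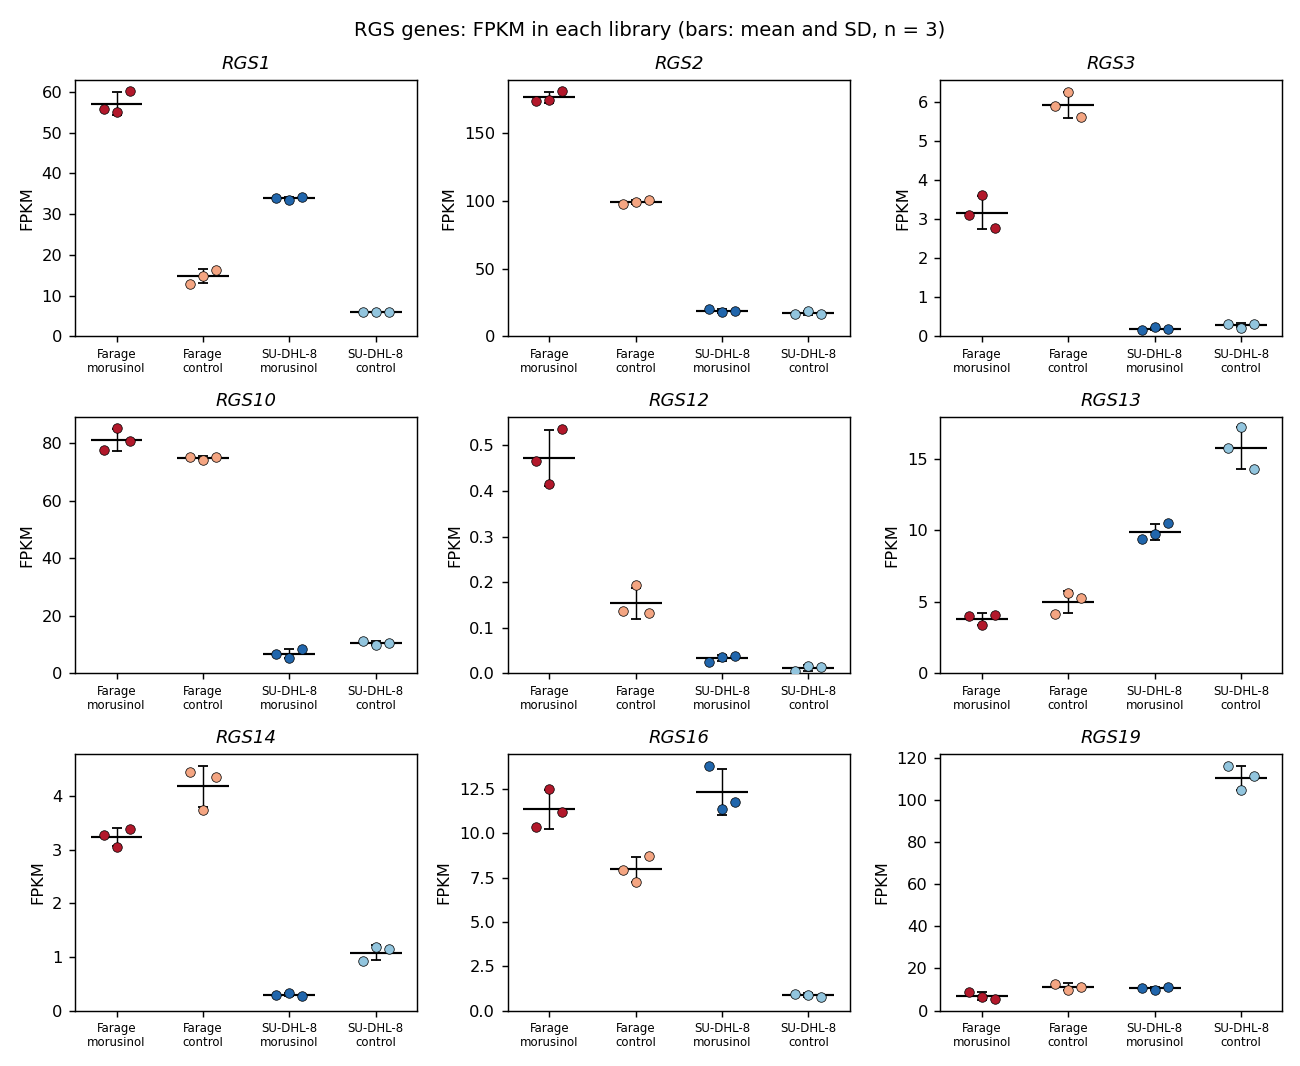
FPKM of the 9 RGS genes in each of the 12 libraries, with a scale of its own for each gene. Points are libraries, and horizontal lines and bars are the mean and SD of 3 libraries. RGS1 is higher with morusinol in both lines (57.1 against 14.7 FPKM in Farage, 33.8 against 5.92 FPKM in SU-DHL-8), and RGS19 is above 100 FPKM only in SU-DHL-8 controls.

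RGS10 and RGS14, of the R12 group, fell with morusinol in SU-DHL-8. RGS10, a short regulator that acts on Gi subunits and consists of little more than the RGS domain, had 6.93, 5.32 and 8.42 FPKM in SU-DHL-8 with morusinol and 11.2, 9.87 and 10.6 FPKM in SU-DHL-8 controls, a log2 fold change of -0.57 ± 0.114. Farage libraries had 77.6, 85.2 and 80.9 FPKM with morusinol, against 75.4, 74.3 and 75.1 FPKM in controls. The treated Farage libraries were all above the controls, by a ratio of means of 1.08, and the difference was not called (0.11 ± 0.114). RGS14, a larger scaffold that also binds Ras-family proteins and inactive Gi subunits, had 0.286, 0.334 and 0.271 FPKM in SU-DHL-8 with morusinol and 0.921, 1.18 and 1.14 FPKM in SU-DHL-8 controls, and fell by 0.68 ± 0.0848. In Farage, RGS14 had 3.28, 3.05 and 3.39 FPKM with morusinol and 4.46, 3.74 and 4.35 FPKM in controls (-0.29 ± 0.0848). The groups did not overlap in either line, but the Farage call ended at a pseudocount of 0.1, with TPM, and without Farage control replicate 1 (-0.25), control replicate 3 (-0.26) or morusinol replicate 2 (-0.26). RGS12, like RGS14 a scaffold with binding sites for Ras-family proteins and inactive Gi subunits, had 0.465, 0.415 and 0.536 FPKM in Farage with morusinol and 0.136, 0.193 and 0.131 FPKM in Farage controls. SU-DHL-8 held at most 0.0388 FPKM of RGS12 with morusinol and 0.0154 FPKM in controls, an estimated 7.99 fragments or fewer in any library. RGS12 was thus higher with morusinol without overlap in both lines, at levels under the filter.

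RGS19, also known as GAIP for its binding to G alpha proteins, fell with morusinol in both lines. It had 10.9, 9.61 and 11.0 FPKM in SU-DHL-8 with morusinol, against 116, 105 and 111 FPKM in SU-DHL-8 controls, a level 10.5-fold lower (log2 fold change -3.28 ± 0.144). Farage libraries had 9.001, 6.63 and 5.43 FPKM with morusinol and 12.8, 9.71 and 11.4 FPKM in controls, and fell by 0.63 ± 0.144. The groups did not overlap in either line, and the 3 SU-DHL-8 control libraries stood alone, since the other 9 libraries lay between 5.43 and 12.8 FPKM. RGS19 lies on the minus strand of chromosome 20 at 64073181 to 64079988. Its partner GIPC1, an adaptor with a PDZ domain, had 4.02 ± 0.693 FPKM in Farage with morusinol and 4.96 ± 0.0884 FPKM in Farage controls, 1.30 ± 0.282 FPKM in SU-DHL-8 with morusinol and 1.58 ± 0.239 FPKM in SU-DHL-8 controls (SD, n = 3 each), and was called in neither line.

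MIR6813 occupies 56 bases inside RGS19, at 64076955 to 64077010 on the same strand. Its mature forms are shown to identify the gene, with the seed, bases 2 to 8, in capitals (RefSeq, GRCh38.p14).
hsa-miR-6813-5p (chr20:64076983-64077005, minus strand): cAGGGGCUgggguuucagguucu
hsa-miR-6813-3p (chr20:64076955-64076975, minus strand): aACCUUGGccccucuccccag
The seeds of these arms differ. The table listed MIR6813 at 2.12, 3.81 and 0 FPKM in Farage with morusinol and 0.471, 1.44 and 0 FPKM in Farage controls, groups that overlapped. In SU-DHL-8 it was listed at 0, 0 and 2.39 FPKM with morusinol and at 8.79, 11.3 and 13.3 FPKM in controls, which like RGS19 stood apart. Because the gene is so short, these levels amount to an estimated 7.5 to 11 fragments in each SU-DHL-8 control library and at most 2 in any other library. The fragments come from an mRNA library and cannot be told apart from those of RGS19, so they are no measure of the mature microRNA.

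Around RGS19, all 3 other genes of the table within 10 kb were also lower in SU-DHL-8 with morusinol; they are given as levels, with no test, since they were looked up after their values had been seen. OPRL1, the receptor for the neuropeptide nociceptin, starts 185 bases from RGS19 on the opposite strand, and the RGS19 window printed above lies wholly within that gap. OPRL1 had 0.339, 0.227 and 0.404 FPKM in SU-DHL-8 with morusinol, against 3.81, 3.24 and 3.71 FPKM in SU-DHL-8 controls, and at most 0.205 FPKM in Farage. TCEA2, a transcription elongation factor that lies 834 bases beyond the other end of RGS19 on the opposite strand, had 3.98, 3.43 and 3.35 FPKM in SU-DHL-8 with morusinol and 11.0, 9.94 and 10.8 FPKM in SU-DHL-8 controls. Its Farage groups, 1.42 ± 0.0965 FPKM with morusinol and 1.19 ± 0.134 FPKM in controls (SD, n = 3 each), overlapped. LKAAEAR1, on the same strand as RGS19 with a gap of 3392 bases, had 0.194, 0 and 0.660 FPKM in SU-DHL-8 with morusinol and 2.13, 2.13 and 2.38 FPKM in SU-DHL-8 controls. It lies wholly within OPRL1, on the opposite strand. Without the strand of counting, fragments of LKAAEAR1 and OPRL1 cannot be told apart where they overlap, so these are not separate observations. The ratio of means, morusinol over control in SU-DHL-8, was 0.0950 for RGS19, 0.0902 for OPRL1, 0.129 for LKAAEAR1 and 0.340 for TCEA2.

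**Figure D2:**
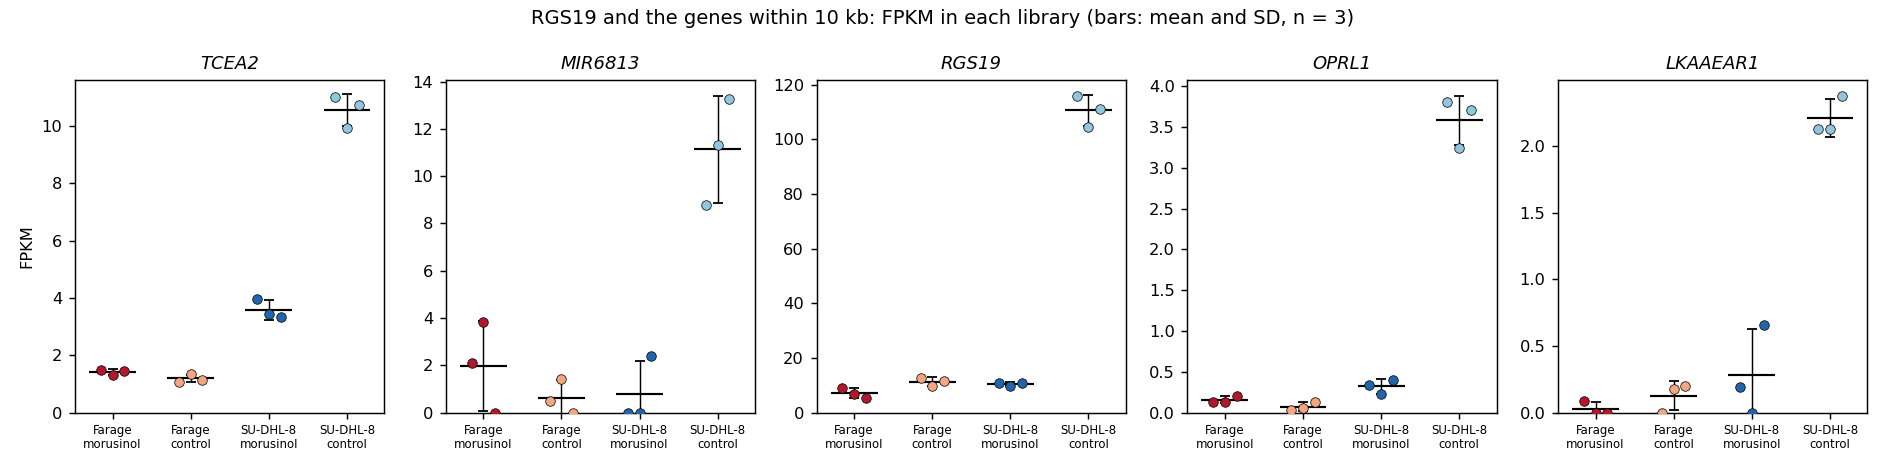
FPKM of RGS19, of MIR6813 inside it and of the 3 other genes within 10 kb, in each of the 12 libraries, in chromosome order with a scale of its own for each gene. Points are libraries, lines and bars the mean and SD of 3 libraries, and bars are clipped at 0. SU-DHL-8 controls are the highest group in all 5 panels, with 111 FPKM of RGS19 and 3.58 FPKM of OPRL1 on average.

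Counted over the 8 tested genes in SU-DHL-8, morusinol libraries were called higher for 2 (RGS1 and RGS16) and lower for 4 (RGS10, RGS13, RGS14 and RGS19), and 2 were not called. Of all 17574 genes tested, 46.8% were called in that comparison, 25.1% higher and 21.6% lower. In Farage 3 were called higher (RGS1, RGS2 and RGS16) and 4 lower (RGS3, RGS13, RGS14 and RGS19), beside 43.1% of all genes, 21.9% higher and 21.2% lower. Without regard to the test, the libraries of 7 of the 9 genes did not overlap in SU-DHL-8, 3 higher and 4 lower, where 54.1% of all genes did not (29.2% higher and 24.9% lower). The same held for all 9 in Farage, 5 higher and 4 lower, where 51% of all genes did not overlap (25.8% higher and 25.3% lower). The genes were picked for such differences, so nothing is read from these counts. The median log2 fold change of the tested genes was -0.09 in Farage and -0.34 in SU-DHL-8, against -0.03 and 0.02 over all genes, as rises and falls stood side by side, and their median absolute change was 0.55 in Farage and 0.65 in SU-DHL-8, against 0.29 and 0.31.

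**Figure D3:**
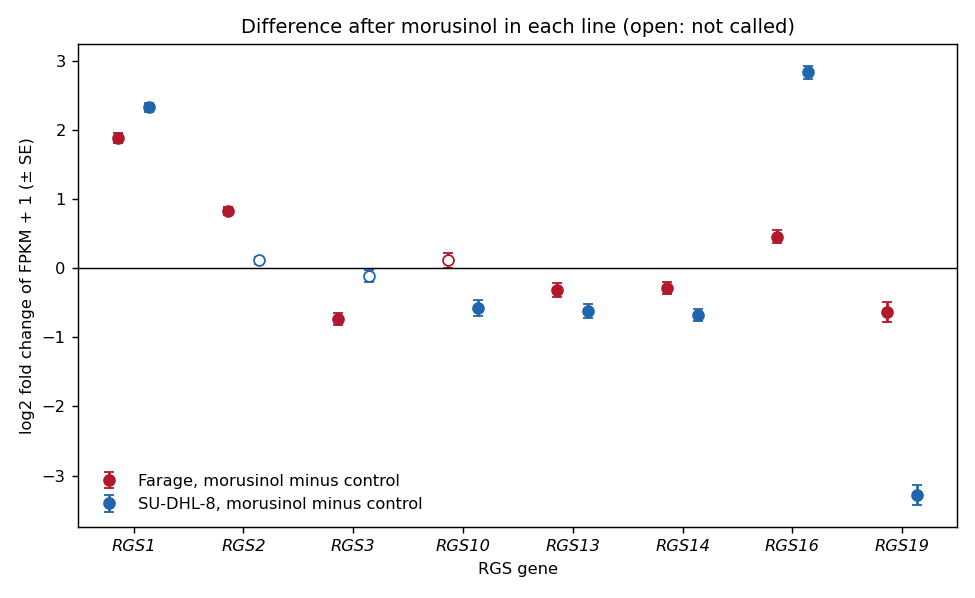
Log2 fold change of FPKM + 1 (± SE), morusinol minus control, of the 8 tested RGS genes in Farage and in SU-DHL-8, 3 libraries per group. Filled points were called over all genes tested, and open points were not. RGS16 (0.46 in Farage, 2.84 in SU-DHL-8) and RGS19 (-0.63 in Farage, -3.28 in SU-DHL-8) differ most between the lines.

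The size of the change differed between the lines for 7 of the 8 tested genes, with RGS13 as the exception (0.30 ± 0.145). Of all genes tested, 34.9% were called for this difference, 17.3% higher and 17.6% lower. With TPM the called genes split into 3344 higher and 2213 lower, against 3038 and 3088 with the deposited scaling. The genes differ too, as 22986 passed the filter with TPM and 17574 with the deposited scaling. RGS19 (2.64 ± 0.204, Farage response minus SU-DHL-8 response) and RGS16 (-2.38 ± 0.129) differed most, each with the same direction in both lines and the larger change in SU-DHL-8. RGS1 had a somewhat smaller rise in Farage (-0.44 ± 0.0957). RGS2 (0.71 ± 0.0804) was called higher and RGS3 (-0.63 ± 0.129) lower in Farage, and neither was called in SU-DHL-8. RGS10 (0.68 ± 0.162) was called lower in SU-DHL-8 and not called in Farage. For RGS14 (0.39 ± 0.12) the call was lost in 6 fits that left out 1 library, namely SU-DHL-8 control replicate 2 (0.36), control replicate 3 (0.37), morusinol replicate 3 (0.38), Farage control replicate 2 (0.33), Farage morusinol replicate 1 (0.38) and morusinol replicate 3 (0.37), and with no filter on low values (0.39). The values of RGS3 and RGS14 in SU-DHL-8 are low, and adding 1 before the logarithm shrinks changes at such levels; with a pseudocount of 0.1 the difference for RGS3 was -0.48 and no longer called.

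The control libraries of the lines, also taken at 12 h, were apart in every one of the 9 genes. Farage controls were called higher than SU-DHL-8 controls for 6 of the 8 tested genes and lower for RGS13 and RGS19, where 64.1% of all genes were called, 34.5% higher and 29.6% lower. The 3 and 3 control libraries did not overlap for any of the 9 genes, 7 higher and 2 lower in Farage, as held for 69.5% of all genes (37.4% higher and 32.1% lower). The ratio of control means, Farage over SU-DHL-8, was 20.7 for RGS3, 9.28 for RGS16, 7.10 for RGS10, 5.76 for RGS2, 3.87 for RGS14 and 2.48 for RGS1. SU-DHL-8 controls held 3.14 times the Farage level of RGS13 and 9.77 times that of RGS19. On the log2 scale the line differences ran from -3.19 ± 0.144 for RGS19 to 2.72 ± 0.114 for RGS10. With TPM the median of all genes tested was 0.23 in this comparison, against 0.08 with the deposited scaling, and both are small beside these values. The medians cover different genes, as 22986 passed the filter with TPM and 17574 with the deposited scaling.

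Summed over the 9 genes, the level was 344 ± 5.99 FPKM in Farage with morusinol and 223 ± 3.53 FPKM in Farage controls, 92.6 ± 4.22 FPKM in SU-DHL-8 with morusinol and 162 ± 4.59 FPKM in SU-DHL-8 controls (SD, n = 3 each). The sum was thus higher with morusinol in Farage and lower in SU-DHL-8, with no overlap between treated and control libraries in either line. RGS2 made up 51.3% of the sum in Farage with morusinol and 44.4% in Farage controls, and RGS10 made up 23.6% and 33.6%. RGS1 accounted for 16.6% in Farage with morusinol and 6.58% in Farage controls, and for 36.6% in SU-DHL-8 with morusinol and 3.65% in SU-DHL-8 controls. RGS19 alone accounted for 11.3% in SU-DHL-8 with morusinol and 68.1% in SU-DHL-8 controls, but for 2.05% and 5.07% in Farage with morusinol and Farage controls. The table has 22 rows for genes named RGS with a number, and these 9 held 90.8% to 97.2% of their summed level in the 4 groups.

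**Figure D4:**
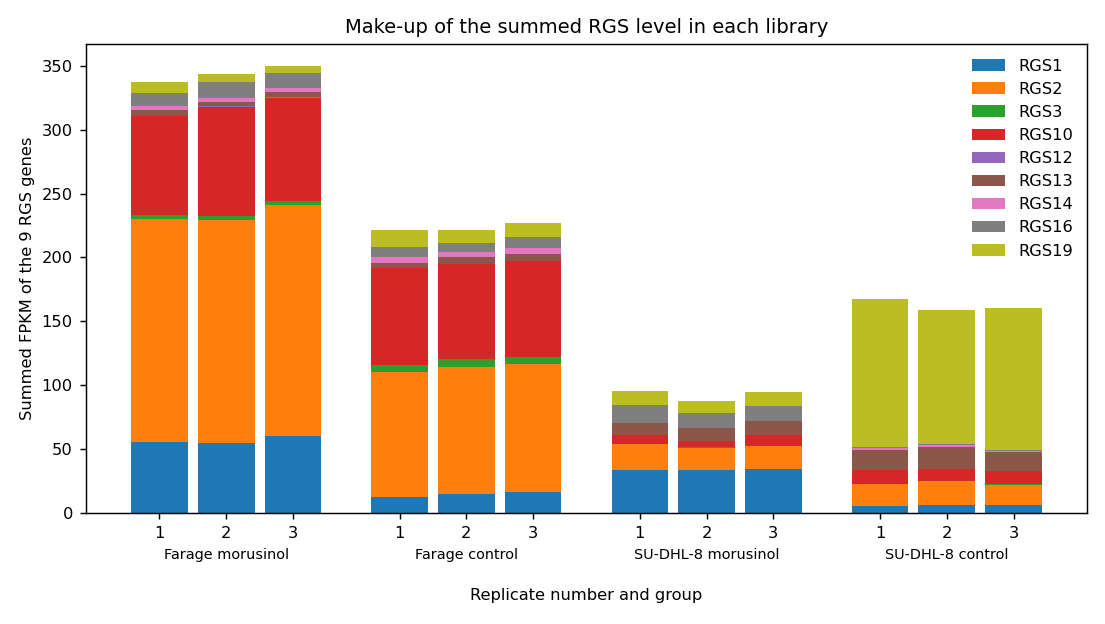
Summed FPKM of the 9 RGS genes in each of the 12 libraries, with 1 bar per library and 1 colour per gene. Most of each Farage bar is RGS2 and RGS10, and most of each SU-DHL-8 control bar is RGS19 (68.1% on average), whereas RGS1 is the largest share in SU-DHL-8 with morusinol (36.6%).

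Ranked by level, RGS2, RGS10 and RGS1 led in both Farage groups, each apart from the next in all libraries. In SU-DHL-8 with morusinol the order was RGS1 at 33.8 ± 0.336 FPKM, RGS2 at 18.7 ± 1.22, RGS16 at 12.3 ± 1.31, RGS19 at 10.5 ± 0.772, RGS13 at 9.87 ± 0.574 and RGS10 at 6.89 ± 1.55 FPKM, where RGS19 and RGS13 overlapped. SU-DHL-8 controls were led by RGS19 at 111 ± 5.68 FPKM, followed by RGS2 at 17.2 ± 1.35 and RGS13 at 15.7 ± 1.47 FPKM, which overlapped each other. RGS10 at 10.6 ± 0.650 and RGS1 at 5.92 ± 0.0527 FPKM came next in SU-DHL-8 controls, then RGS14 at 1.08 ± 0.139 and RGS16 at 0.859 ± 0.106 FPKM, which overlapped. RGS1 and RGS16 thus stood at ranks 1 and 3 of the 9 genes in SU-DHL-8 with morusinol, and at ranks 5 and 7 in SU-DHL-8 controls.

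Other RGS genes added little to the summed level. The genes named here and in the lists that follow were picked by their p ranks in these data. Their adjusted p describe them and are no independent test. Of the 15 rows for other RGS genes and their binding partners, 5 were tested, and morusinol libraries were called higher for 3 and lower for none in SU-DHL-8, and higher for none and lower for 1 in Farage. Over all genes tested, 46.8% were called in SU-DHL-8 (25.1% higher and 21.6% lower) and 43.1% in Farage (21.9% higher and 21.2% lower). RGS8, a regulator of the R4 group known mainly from brain, lies 37.4 kb from RGS16 on the same strand of chromosome 1. It had 2.87, 2.39 and 2.17 FPKM in SU-DHL-8 with morusinol, against 0.0392, 0.0631 and 0 FPKM in SU-DHL-8 controls (log2 fold change 1.74 ± 0.110, adjusted p = 4.05e-07 in limma), and was at or below 0.0319 FPKM in every Farage library. RGS9, which in retinal photoreceptors ends the light response together with the beta subunit GNB5, had 2.11, 1.80 and 1.63 FPKM in Farage with morusinol and 4.27, 4.20 and 4.55 FPKM in Farage controls (-0.91 ± 0.0933, adjusted p = 2.12e-05 in limma). In SU-DHL-8, RGS9 had 0.0501, 0.0469 and 0.0569 FPKM with morusinol and 0.177, 0.250 and 0.115 FPKM in controls, without overlap. The ratio of means was 0.284 in SU-DHL-8 and 0.425 in Farage. The SU-DHL-8 difference was not called (-0.17 ± 0.0933), but it was called with a pseudocount of 0.1 (-0.86). RGS20, a close relative of RGS19 in the RZ group, had 8.75 ± 1.29 FPKM in Farage with morusinol and 10.4 ± 0.288 FPKM in Farage controls, 0.747 ± 0.147 FPKM in SU-DHL-8 with morusinol and 0.216 ± 0.124 FPKM in SU-DHL-8 controls (SD, n = 3 each). The difference of RGS20 was called in SU-DHL-8 (0.52 ± 0.108) and in Farage only when morusinol replicate 3 was left out (-0.33). RGS19 and RGS20 thus had opposite line patterns, RGS19 high in SU-DHL-8 controls and RGS20 in Farage.

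Among the alpha subunits on which RGS proteins act, 8 of 15 were tested, and morusinol libraries were called higher for 3 and lower for 1 in Farage and higher for 3 and lower for 5 in SU-DHL-8 (median log2 fold change 0.02 and -0.30, against -0.03 and 0.02 over all genes). All 8 were thus called in SU-DHL-8 and 4 of 8 in Farage, beside 46.8% and 43.1% of all genes. The SU-DHL-8 call of GNA11 (-0.28 ± 0.0868) was lost with a pseudocount of 0.1 (-0.35), no filter on low values (-0.28) and scaling to protein-coding genes (-0.22). It was also lost without SU-DHL-8 control replicate 1 (-0.24) or SU-DHL-8 morusinol replicate 2 (-0.22). GNAI2, the main Gi alpha subunit of lymphocytes, fell in both lines, to 22.5 ± 0.789 FPKM in Farage with morusinol, against 28.97 ± 2.66 FPKM in Farage controls (-0.35 ± 0.0655, adjusted p = 0.00145 in limma), and to 16.7 ± 0.974 FPKM in SU-DHL-8 with morusinol, against 26.4 ± 0.860 FPKM in SU-DHL-8 controls (-0.63 ± 0.0655, adjusted p = 1.72e-05). GNA13, which carries signals of receptors that keep germinal centre B cells in place, had 71.4 ± 6.04 FPKM in Farage with morusinol and 57.9 ± 2.80 FPKM in Farage controls, and 35.2 ± 0.862 FPKM in SU-DHL-8 with morusinol and 27.7 ± 2.39 FPKM in SU-DHL-8 controls (adjusted p = 0.00673 and 0.00276 in limma). With TPM the SU-DHL-8 value of GNA13, 0.24, was not called. Of the beta and gamma subunits 11 of 17 were tested, with 4 higher and 3 lower in Farage (43.1% of all genes were called there) and 3 higher and 3 lower in SU-DHL-8 (46.8% of all genes). The SU-DHL-8 call of GNGT2, 1 of the 3 higher, was lost with TPM (0.54), and with no filter, a replicate block or only the groups compared (0.47 each). It was also lost in most fits that left out 1 library, as without SU-DHL-8 morusinol replicate 3 (0.34). The Farage call of GNB4, 1 of the 3 lower, was lost with TPM (-0.22), no filter (-0.21) and scaling to protein-coding genes (-0.15). It was also lost without Farage control replicate 2 (-0.16) or 3 (-0.23), or without any single Farage morusinol library. GNB1, a beta subunit, had 66.3 ± 0.934 FPKM in Farage with morusinol and 63.9 ± 1.60 FPKM in Farage controls, and fell to 56.9 ± 3.80 FPKM in SU-DHL-8 with morusinol, against 80.6 ± 3.09 FPKM in SU-DHL-8 controls (adjusted p = 1.05e-05 in limma).

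Of 23 G protein coupled receptors known in B cells 16 were tested, with 3 higher and 4 lower in Farage and 5 higher and 3 lower in SU-DHL-8. These shares, 7 and 8 of 16, are near those of all genes called, 43.1% in Farage and 46.8% in SU-DHL-8. CXCR4, the receptor for CXCL12, had 27.1, 29.2 and 26.7 FPKM in Farage with morusinol and 6.94, 6.89 and 7.66 FPKM in Farage controls (1.81 ± 0.0578, adjusted p = 6.24e-09 in limma). In SU-DHL-8 it had 241, 224 and 226 FPKM with morusinol and 103.5, 109.7 and 97.0 FPKM in controls (1.15 ± 0.0578, adjusted p = 7.86e-08). CCR7, the receptor for CCL19 and CCL21, had 118, 109 and 106 FPKM in Farage with morusinol and 22.1, 20.5 and 22.2 FPKM in Farage controls (2.31 ± 0.0902, adjusted p = 2.1e-08 in limma). Its SU-DHL-8 libraries had 15.2, 11.4 and 14.7 FPKM with morusinol and 10.1, 10.3 and 10.6 FPKM in controls (0.37 ± 0.0902, adjusted p = 0.00643), a call that was lost with TPM (0.28). PTGER4, a receptor for prostaglandin E2 that raises cAMP, rose in both lines, by 0.75 ± 0.0417 in Farage and 1.51 ± 0.0417 in SU-DHL-8 (adjusted p = 2.63e-07 and 1.71e-09 in limma).

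Of 14 other genes with an RGS-homology domain, all tested, 3 were higher and 2 lower in Farage and 2 higher and 4 lower in SU-DHL-8, so that 5 and 6 of 14 were called, beside 43.1% and 46.8% of all genes. They include receptor kinases, of which GRK6 had 19.6 ± 1.24 FPKM in Farage with morusinol and 25.1 ± 1.52 FPKM in Farage controls, and 10.4 ± 0.302 FPKM in SU-DHL-8 with morusinol and 21.3 ± 1.15 FPKM in SU-DHL-8 controls (adjusted p = 9.15e-04 and 3.31e-07 in limma). GRK3, another receptor kinase, rose by 0.40 ± 0.0616 in Farage and 0.69 ± 0.0616 in SU-DHL-8. The Farage call of GRK2, also counted above, was lost with TPM (-0.22) and with scaling to protein-coding genes (-0.16). It was also lost without Farage control replicate 1 (-0.20) or 3 (-0.22), or Farage morusinol replicate 3 (-0.18). Of 8 other modulators of G proteins 6 were tested, with 1 higher and none lower in Farage (43.1% of all genes were called) and 1 higher and 4 lower in SU-DHL-8 (46.8%), among them ARRB2, an arrestin that uncouples receptors (-0.56 ± 0.0553 in SU-DHL-8). The 1 Farage call, of RIC8A, was lost with TPM (0.16), and with no filter, a replicate block, only the groups compared, or no trend and no robust prior (0.14 each). It was also lost in most fits that left out 1 library. The SU-DHL-8 call of RIC8B was lost in some such fits, as without SU-DHL-8 control replicate 1 (-0.31). Of 17 effectors 11 were tested, with 3 higher and 5 lower in Farage, where 21.9% of all genes were higher and 21.2% lower, and 2 higher and 7 lower in SU-DHL-8, where 25.1% were higher and 21.6% lower. PDE4D, a phosphodiesterase that breaks down cAMP, rose in both lines, to 10.5 ± 0.953 FPKM in Farage with morusinol, against 2.95 ± 0.101 FPKM in Farage controls, and to 7.04 ± 0.666 FPKM in SU-DHL-8 with morusinol, against 2.14 ± 0.218 FPKM in SU-DHL-8 controls (adjusted p = 1.76e-07 and 2.83e-07 in limma). PIK3CG, a lipid kinase driven by beta and gamma subunits, fell by 0.40 ± 0.0291 in Farage and by 0.50 ± 0.0291 in SU-DHL-8. ADCY3, which makes cAMP, rose by 0.27 ± 0.0504 in Farage and fell by 0.77 ± 0.0504 in SU-DHL-8 (adjusted p = 0.00133 and 5.38e-07 in limma).

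The genes whose levels most resembled those of the RGS genes were sought among 8711 genes with a mean of at least 5 FPKM in some group, by Pearson correlation over the 12 libraries. With libraries in 4 groups such a correlation mostly compares the group levels, and it is given as a description. For RGS19 they were LYL1 (r of 0.997), ZMYND19 (0.996), BIRC5, GINS4 and EIF4A3 (0.995 each), all highest in SU-DHL-8 controls. LYL1 had 4.37 FPKM in Farage with morusinol, 5.86 FPKM in Farage controls, 5.73 FPKM in SU-DHL-8 with morusinol and 27.0 FPKM in SU-DHL-8 controls on average. The closest gene was TCEA1 for RGS1 (0.996), EPS15 for RGS16 (0.992), RETREG1 for RGS2 (0.999), LOXL2 for RGS3 (0.997), NIPA1 for RGS10 (0.998) and VTA1 for RGS13 (0.994).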

How the data were processed

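The authors deposited 1 table of FPKM with 1 column for each of the 12 libraries, whose libraries were built from total RNA (SMARTer mRNA-seq kit), per the labels' protocols. The sources used here do not give the aligner, counting program, annotation or strand. The submitters' processing notes name only the mouse builds GRCm38 and mm10, yet the gene identifiers are human, and 94.8% match GENCODE release 29 (GRCh38), whose positions and exon lengths are used. Control columns were assigned by exclusion, because only that group was left. Depth is an estimate, from the steps that 1 fragment makes in a gene's values: with a tolerance of 0.02 fragments 51.0% to 53.0% of values under 50 fragments were whole.

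FPKM were used as deposited. Genes with at least 1 FPKM in at least 3 libraries were kept (17574), transformed to log2(FPKM + 1), and modelled over all 12 libraries, as 4 group means, in limma 3.58.1 (R 4.3.3; empirical Bayes with trend and robust prior). A gene was called when its two-sided Benjamini-Hochberg adjusted p over all genes tested was under 0.05. Fold changes on this scale understate the change of low genes. Overlap of groups compares the 3 with the 3 libraries. Levels were prepared and plotted with Python 3.11.15, pandas 2.3.3 and matplotlib 3.10.9.

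The 9 RGS genes, the 7 lists of other G protein genes and the markers were chosen with earlier results of these data known. From each list up to 6 genes, ranked by the sum of their p ranks over both morusinol comparisons, could be named; the alternatives were computed for the first 3 and for GIPC1. Promoter and microRNA sequences come from RefSeq (GRCh38.p14), in which all 9 genes were matched. The fit was tested on simulated data. Alternatives were a pseudocount of 0.1, no filter, TPM, scaling to protein-coding genes, leaving out each library, a replicate block, only the groups compared, and no trend or robust prior.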

Additional observations from a re-analysis of the deposited data

Results flagged for a closer look

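The response to morusinol differed between the lines, by the interaction term of the fit (Farage response minus SU-DHL-8 response, log2 scale, limma, adjusted p under 0.05), for the genes listed here, and no explanation is offered. Among the RGS genes the values were 2.64 for RGS19, -2.38 for RGS16, 0.71 for RGS2, 0.68 for RGS10, -0.63 for RGS3, -0.44 for RGS1 and 0.39 for RGS14. MIR6813, which rests on 11 fragments or fewer in any library, had 3.68. Of the other RGS genes, RGS8 had -1.74, RGS20 -0.76 and RGS9 -0.74, the last of which was not called with a pseudocount of 0.1 (-0.33). RGS9 was lower with morusinol in both lines, and its SU-DHL-8 levels were under 1 FPKM, where adding 1 shrinks the change.

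Receptors differed in both directions, with 1.94 for CCR7, 0.67 for CXCR4 and -0.76 for PTGER4. The subunits GNA11 (0.76), GNB1 (0.55), GNB4 (0.38), GNAI2 (0.28) and GNGT2 (-1.11), the receptor kinases GRK6 (0.63) and GRK3 (-0.29), the modulators ARRB2 (0.63), RIC8B (0.46) and RIC8A (0.42) and the cyclase ADCY3 (1.05) also differed. When each library was left out in turn, the difference ranged from 0.21 to 0.33 for GNAI2, from -0.34 to -0.24 for GRK3 and from 0.42 to 0.54 for RIC8B. The call was lost for GRK3 without SU-DHL-8 control replicate 1 (-0.24) or 3 (-0.28), SU-DHL-8 morusinol replicate 3 (-0.26), Farage control replicate 1 (-0.28) or 2 (-0.27) and Farage morusinol replicate 1 (-0.26) or 2 (-0.28), and also with TPM (-0.23) or no filter on low values (-0.29). It was lost for GNAI2 without SU-DHL-8 control replicate 2 (0.28) or 3 (0.26), SU-DHL-8 morusinol replicate 2 (0.25) or 3 (0.27), Farage control replicate 2 (0.21) and Farage morusinol replicate 1 (0.26) or 2 (0.28), and also with no filter or with no trend and no robust prior (0.28 each), and for RIC8B without SU-DHL-8 morusinol replicate 3 (0.42).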

How the results depend on the processing

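Over 19 alternative settings, the number of tested RGS genes called stayed within 1.5 times the reported count in each of the 4 comparisons. None of the 600 values of single RGS genes changed sign with a call in either fit. They include fits that left out a library outside the comparison, where the fold change could not move. Of the 600, 577 kept their state, called or not called in both fits, whatever the size of the change, 21 lost a call and 2 gained one. With 1 library left out the number called was 5 to 7 in Farage, 6 to 7 in SU-DHL-8, 6 to 7 for the responses compared and 8 throughout for the controls. Of 1725 values of the other named genes, 1649 likewise kept their state, 71 lost a call and 5 gained one. None changed sign with a call in either fit. Signs of uncalled values did change, as for GIPC1, whose difference between responses ran from -0.19 to 0.02 with 1 library left out. Besides the losses given above, the Farage call of RGS13 ended with no filter (-0.31), TPM (-0.34), scaling to protein-coding genes (-0.26) and only the groups compared (-0.31), and the difference for MIR6813 was 6.35 at a pseudocount of 0.1 and not called. Without the filter on low values, or with TPM, RGS12 was among the genes tested, and the number called higher in Farage was 4. The sources used here do not say whether same-numbered libraries of a line form pairs. Deviations from the group means correlated at -0.079 to 0.033 for same-numbered libraries and at -0.096 to 0.115 for the others. With 3 libraries per group, these values cannot decide whether the libraries were paired. With the replicate number as a block, 7 RGS genes were called in Farage, 6 in SU-DHL-8, 6 for the responses compared (RGS14, at 0.39, was lost) and 8 for the controls. Depth is estimated rather than given, so levels under about 1 FPKM carry no counting interval.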
